A study of Rattus norvegicus with 12 samples.

Results

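A set of 6 genes that cardiologists read as the fetal and hypertrophic programme of the ventricle, Nppa, Nppb, Myh6, Myh7, Acta1 and Ankrd1, was followed in the left ventricles of VEGF-B transgenic rats. Every probe whose gene symbol was one of these was taken, which gave 6 probes, 1 for each gene, of the 22517 probes on the array and the 9054 that were bright enough to be tested. The 6 VEGF-B TG rats carried a VEGF-B transgene driven by the α-myosin heavy chain promoter, which is the promoter of Myh6 and restricts expression to cardiomyocytes, and the 6 WT rats were littermates without it. All 12 were male rats aged 2 months on an outbred Wistar stock (HsdBrl:WH), and left ventricular total RNA from each heart was hybridized to 1 array, so that each rat was 1 replicate. The comparison asked whether the enlarged TG hearts carry the expression pattern of pathological remodeling.

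In the rodent ventricle, birth is followed by a switch in which genes of the fetal heart are turned down and the adult contractile isoforms take over. Pressure overload and heart failure turn this switch back in part: the natriuretic peptides, β-myosin heavy chain and skeletal α-actin are induced and α-myosin heavy chain declines, whereas the growth of the heart with exercise is known to leave this programme largely quiet. The programme is driven by stretch, calcineurin signaling and transcription factors of the GATA, TEAD, NKX2-5 and serum response factor families, which bind short motifs close to the start of these genes.

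The stretches of DNA just before 3 of these genes are shown, as such factors are known to drive the genes through motifs near their start. They were taken from RefSeq on the rat build GRCr8, whose promoter table matched 5 of the 6 genes. Ankrd1 had no entry, and the windows listed for Myh6 and Myh7 were not used here because they seemed to begin at internal exons. Each run is the 250 bases before the annotated start, on the strand of the gene, and capitals mark the motif matches. M-CAT, the site of TEAD factors, was searched as CATTCC. The site of GATA factors was searched as AGATAA and, in the same way, as TGATAA. These and the CArG box of serum response factor were searched on both strands, whereas the TATA box was searched as TATAAA on the strand of the gene alone.
Nppa, chr5:163711934-163712183, plus strand: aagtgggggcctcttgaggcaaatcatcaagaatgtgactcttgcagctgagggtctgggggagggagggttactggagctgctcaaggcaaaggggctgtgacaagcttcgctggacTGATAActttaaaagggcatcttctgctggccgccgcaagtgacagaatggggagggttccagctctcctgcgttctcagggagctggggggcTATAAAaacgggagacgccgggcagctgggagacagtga
Nppb, chr5:163699758-163700007, plus strand: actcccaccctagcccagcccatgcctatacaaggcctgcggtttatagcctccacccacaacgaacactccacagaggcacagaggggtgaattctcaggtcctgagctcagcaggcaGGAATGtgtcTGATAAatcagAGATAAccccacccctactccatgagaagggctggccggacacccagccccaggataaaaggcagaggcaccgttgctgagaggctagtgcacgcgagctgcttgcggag
Acta1, chr19:68784195-68784444, minus strand: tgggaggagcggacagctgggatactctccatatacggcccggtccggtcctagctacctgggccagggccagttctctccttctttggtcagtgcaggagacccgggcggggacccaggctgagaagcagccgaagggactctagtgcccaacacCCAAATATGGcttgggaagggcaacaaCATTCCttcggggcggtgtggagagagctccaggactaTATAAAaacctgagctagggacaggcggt
The Nppa window held 1 GATA match at -132 to -127 and a TATA box at -39 to -34, counted from the start. The window of Nppb, the gene next to Nppa in the annotation, held an M-CAT match on the other strand at -131 to -126 and GATA matches at -121 to -116 and -110 to -105. The Acta1 window held a CArG box at -94 to -85, M-CAT at -67 to -62 and a TATA box at -29 to -24. The unused Myh6 window held M-CAT at -23 to -18, and the unused Myh7 window held no match. Of 33469 rat promoter windows of the same length, 1.5% held a CArG box, 12.1% M-CAT, 16.9% a GATA match and 8.06% a TATA box. No 2 matches overlapped, and a match here describes letters and not a bound site.

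None of the 6 genes differed between the genotypes at an adjusted p under 0.05 (limma, Benjamini-Hochberg over the 9054 tested probes), where 21.9% of all tested probes did, 11.6% higher and 10.3% lower in TG hearts. At an unadjusted p under 0.05 the count was also 0 of 6, against 34.5% of all tested probes. The estimates were above 0 for Nppa, Acta1, Myh7 and Myh6 and below 0 for Nppb and Ankrd1, and for 0 of 6 genes were the genotypes without overlap, which was the case for 10.8% of all probes tested. The median size of the difference was 0.16 on the log2 scale over the 6 genes and 0.14 over all tested probes, while the median standard error was 0.15 over the 6 and 0.09 over all. Within the genotypes, Nppb varied more than 95.2% of all tested probes, Acta1 more than 93.8%, Myh7 more than 90.8% and Ankrd1 more than 65.5%, while Myh6 varied more than 2.5% of them. Against probes of like brightness only, within 0.5 log2 units, the shares were 99.1% for Nppb, 98.5% for Acta1, 98.1% for Myh7, 98.0% for Ankrd1 and 27.4% for Myh6.

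**Figure D1:**
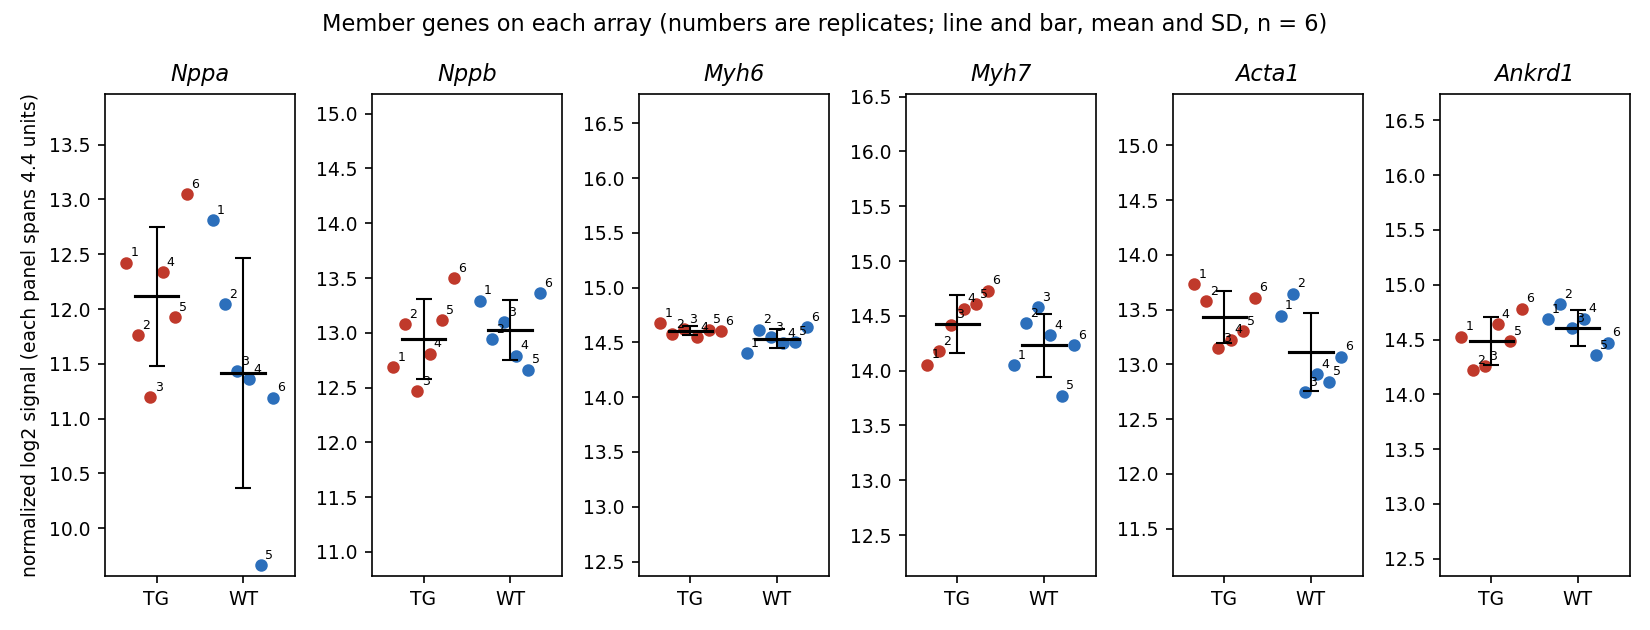
Normalized log2 signal of the 6 genes on each array, VEGF-B TG left and WT right, each panel spanning the same number of log2 units, with the mean and SD (n = 6 per genotype). Nppa spread over 1.85 units in TG and 3.15 in WT hearts, whereas Myh6 lay within 0.12 and 0.24 units, and the genotypes overlapped for every gene.

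Nppa (probe ILMN_1373142) encodes atrial natriuretic peptide, a hormone of the atria that the adult ventricle makes in small amounts until it is loaded. Its bead intensity was 5657, 3695, 2530, 4560, 3781 and 8239 in TG replicates 1 to 6, against 8425, 4368, 2664, 2929, 977 and 2521 in WT replicates 1 to 6. The highest TG and the highest WT heart were nearly alike, and a single WT heart, replicate 5, lay far below the rest. On the normalized log2 scale TG hearts averaged 12.12 ± 0.63 and WT hearts 11.42 ± 1.05 (SD, n = 6 each), a difference of 0.70 with a standard error of 0.42. The 95% interval ran from -0.20 to 1.59, which as a fold is 0.873 to 3.01 around 1.62, so a tripling and a small decrease were both within it (adjusted p = 0.259, limma; 2-sided exact permutation p = 0.199). Without WT replicate 5 the difference was 0.35, and without WT replicate 1 it was 0.98, with an adjusted p of 0.0908 (limma). Among all tested probes, 99.7% varied less within the genotypes than Nppa did, and 99.5% of the 440 probes of like brightness.

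Nppb (ILMN_2039308) encodes brain natriuretic peptide, the ventricular hormone released on stretch. Its intensity ran from 5863 in TG replicate 3 to 11605 in TG replicate 6 (the others were 6684, 9038, 6270 and 8533), and in WT hearts it was 11562, 8085, 8152, 7729, 7055 and 11064 in replicates 1 to 6. The highest and the lowest of all 12 values were both TG hearts. The means were 12.94 ± 0.37 in TG and 13.02 ± 0.28 in WT hearts on the log2 scale (SD, n = 6 each), a difference of -0.08 with a 95% interval of -0.43 to 0.27 (adjusted p = 0.765, limma; exact permutation p = 0.656). The sign turned, to 0.01, when TG replicate 3 was left out.

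The machinery that cuts, senses and clears these peptides was read from 6 further tested genes, of 8 on the array. In either direction 0 of 6 passed the test, where 21.9% of all tested probes did. The median difference was -0.00 against -0.01 over all named genes. The brightest of the 6 was Pcsk6, a proprotein convertase that activates corin, at 0.22 (SE 0.12, adjusted p = 0.203, limma). Corin, the protease that cuts the Nppa product and which was singled out after its value was seen, had the only unadjusted p under 0.05 on the list, at -0.52 (SE 0.22, adjusted p = 0.114, limma). Npr1, the receptor of both peptides, differed by -0.05 and Npr3, the clearance receptor, by 0.07.

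Myh6 (ILMN_1349554) encodes α-myosin heavy chain, the fast adult isoform of the rodent ventricle, and its promoter is also the one placed before the transgene. Its normalized log2 signal was 14.68, 14.58, 14.62, 14.55, 14.62 and 14.60 in TG replicates 1 to 6 and 14.40, 14.62, 14.55, 14.50, 14.51 and 14.64 in WT replicates 1 to 6. The TG hearts lay in a narrow band and 3 WT hearts lay below it. The means were 14.61 ± 0.04 in TG and 14.53 ± 0.09 in WT hearts (SD, n = 6 each), and the difference of 0.07 had a 95% interval of -0.05 to 0.20 (adjusted p = 0.413, limma; exact permutation p = 0.102). As a fold this interval is 0.964 to 1.15. Myh6 was the 48th brightest of the 22517 probes, at 21964 to 27315 in TG and 22344 to 26340 in WT hearts, where the brightest value on any array was 37843. Whether the bright end of the scale narrows its spread or its difference was not tested. The same holds for Ankrd1 and Myh7, the 54th and 69th brightest probes.

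Myh7 (ILMN_1373879) encodes β-myosin heavy chain, the slow isoform of the fetal rat ventricle. Its log2 signal was 14.06, 14.18, 14.42, 14.57, 14.61 and 14.73 in TG replicates 1 to 6, against 14.05, 14.44, 14.58, 14.32, 13.77 and 14.23 in WT replicates 1 to 6. TG replicates 5 and 6 lay above all WT hearts, and WT replicates 1 and 5 lay below all TG hearts. The means were 14.43 ± 0.26 in TG and 14.23 ± 0.29 in WT hearts (SD, n = 6 each), a difference of 0.19 with a 95% interval of -0.11 to 0.49 (adjusted p = 0.357, limma; exact permutation p = 0.255). Without WT replicate 5 the difference was 0.10.

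The balance of the 2 isoforms was read as the ratio of the Myh7 to the Myh6 bead intensity within each array. Because the 2 probes need not respond alike, the ratio has no meaning as an absolute share, and only its change between the genotypes can be read. Both probes lie near the bright end of the scale, and whether this shrinks that change was not tested. It was 0.643, 0.761, 0.885, 1.03, 0.983 and 1.09 in TG replicates 1 to 6 and 0.772, 0.883, 1.00, 0.918, 0.599 and 0.760 in WT replicates 1 to 6. The lowest TG and the lowest WT heart were close to each other and the genotypes overlapped over most of their range. The mean ratio was 0.898 ± 0.170 in TG and 0.823 ± 0.143 in WT hearts (SD, n = 6 each), and on the normalized log2 scale the genotypes differed by 0.12, less than the SD of 0.28 within TG and 0.26 within WT hearts. As the ratio combines 2 of the chosen genes, no test was made of it. Leaving out WT replicate 5 gave a log2 difference of 0.03, and leaving out TG replicate 1 gave 0.21.

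**Figure D2:**
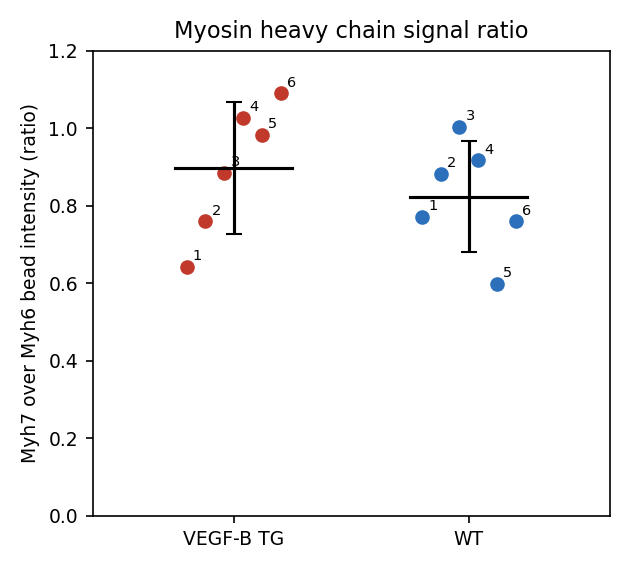
Ratio of Myh7 to Myh6 bead intensity in each heart, VEGF-B TG left and WT right, with the mean and SD (n = 6 per genotype). The ratios ran from 0.643 to 1.09 in TG and from 0.599 to 1.00 in WT hearts.

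Of the other myosin chains and thick filament genes, 0 of 8 tested rose and 2 of 8 fell. The median difference was -0.21, and of all tested probes 11.6% rose and 10.3% fell. The genes that fell were Myl2, the ventricular regulatory light chain, at -0.33 (SE 0.09, adjusted p = 0.0218, limma), and Myh7b, a slow myosin heavy chain gene, at -0.36 (SE 0.11, adjusted p = 0.0299, limma). The Myl2 probe was dim, at a mean log2 signal of 9.51 in TG and 9.84 in WT hearts. Myl3, another light chain of the list, was at 14.58 and 14.70. The Myh7b call was lost, with adjusted p between 0.0503 and 0.0678 (limma), when any 1 of TG replicates 3 and 6 or WT replicates 1, 4 and 6 was left out, and its adjusted p was 0.0572 when no dim probe was filtered out.

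Acta1 (ILMN_1360149) encodes skeletal α-actin, the fetal partner of cardiac α-actin in the sarcomere, and came nearest to the threshold. Its log2 signal was 13.73, 13.58, 13.15, 13.23, 13.30 and 13.61 in TG replicates 1 to 6, against 13.45, 13.65, 12.75, 12.91, 12.84 and 13.07 in WT replicates 1 to 6. All 6 TG hearts lay above the WT mean and 4 of 6 WT hearts lay below every TG heart, but WT replicate 2 was as high as the upper TG hearts and WT replicate 1 lay amid the TG hearts. TG hearts averaged 13.43 ± 0.24 and WT hearts 13.11 ± 0.36 (SD, n = 6 each), and the difference of 0.32 had a 95% interval of -0.01 to 0.65, or 0.994 to 1.57 as a fold around 1.25 (adjusted p = 0.156, limma; exact permutation p = 0.0974). Without WT replicate 2 the difference was 0.43 with an adjusted p of 0.0408 (limma), which passed the threshold. With any 1 of the other arrays left out it did not pass, with differences down to 0.25. Acta1 was also called with the replicate number as a block (adjusted p = 0.0250, limma), though no label ties the numbers to pairs of rats.

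Of the other actin and thin filament genes, 0 of 8 tested rose and 1 of 8 fell. The median was -0.09, and of all tested probes 11.6% rose and 10.3% fell. The gene that fell was Lmod2, leiomodin 2, which elongates cardiac thin filaments, at -0.38 (SE 0.11, adjusted p = 0.0209, limma), and its adjusted p was 0.0501 (limma) without WT replicate 4.

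Ankrd1 (ILMN_1360661) encodes the cardiac ankyrin repeat protein, a stretch-responsive partner of titin at the I-band and a nuclear cofactor. Its log2 signal was 14.53, 14.22, 14.25, 14.64, 14.48 and 14.78 in TG replicates 1 to 6, against 14.68, 14.82, 14.61, 14.69, 14.36 and 14.47 in WT replicates 1 to 6. TG replicates 2 and 3 lay below every WT heart, and the other 4 TG hearts were mixed with the WT hearts. The means were 14.48 ± 0.22 in TG and 14.61 ± 0.17 in WT hearts (SD, n = 6 each), a difference of -0.12 with a 95% interval of -0.35 to 0.10 (adjusted p = 0.445, limma; exact permutation p = 0.297). The estimate lay below 0, where those of Nppa, Acta1 and Myh7 lay above it, and none of them passed the test.

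**Figure D3:**
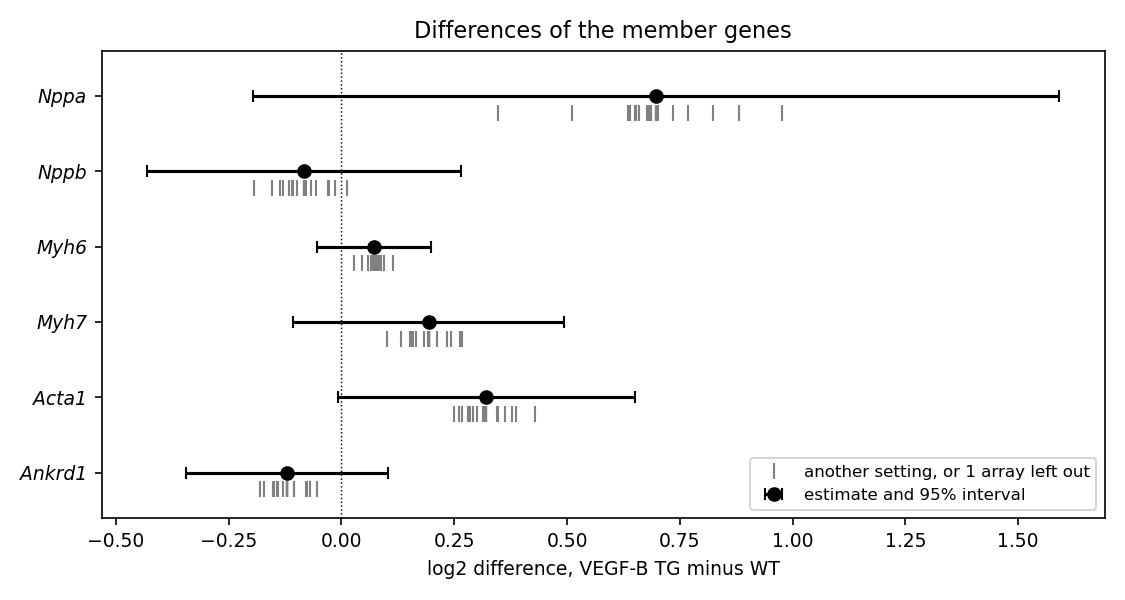
Log2 difference, VEGF-B TG minus WT, of each gene with its 95% interval (black), and below it the values under other processing settings or with 1 array left out (grey marks). Every interval includes 0, and that of Nppa, from -0.20 to 1.59, is the widest of the 6.

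Other genes of the stretch sensor and Z-disc did differ in RNA signal: 7 of 11 tested genes fell and 0 of 11 rose. The median was -0.27, and of all tested probes 10.3% fell and 11.6% rose. Fhl2, a LIM protein bound to titin, had an intensity of 13710, 12939, 14196, 12663, 12872 and 11970 in TG replicates 1 to 6, against 20454, 17638, 16173, 20480, 20896 and 16821 in WT replicates 1 to 6, with every TG heart below every WT heart. On the log2 scale it fell by 0.42 (SE 0.07, adjusted p = 0.000741, limma). Trim54 and Trim55, muscle RING-finger proteins, differed by -0.47 (adjusted p = 0.0108, limma) and -0.34 (adjusted p = 0.00633, limma). The remaining 4, of which Mypn, Csrp3 and Trim63 are named after their values were seen, were these and Myoz2, at -0.24 to -0.47, and Myoz2, calsarcin-1, lost its call without any 1 of TG replicates 5 and 6 or WT replicates 1, 2 and 5 (adjusted p up to 0.0821, limma) and after cyclic loess normalization (adjusted p = 0.101).

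The signaling genes and transcription factors upstream of the programme passed the test in 1 of 11 and 4 of 13 cases, where 21.9% of all tested probes passed. Of the calcineurin, CaMKII and histone deacetylase genes, 1 of 11 tested rose and 0 of 11 fell, with a median of -0.05. The gene that rose was Nfatc4, a calcineurin-dependent factor, at 0.37 (SE 0.08, adjusted p = 0.00369, limma). Of the transcription factors known to bind these promoters, 1 of 13 rose and 3 of 13 fell, with a median of -0.15. Nkx2-5, the cardiac homeobox factor that activates Nppa, fell by 0.43 (SE 0.09, adjusted p = 0.00333, limma), and its log2 signal was 9.48 to 9.95 in TG and 9.93 to 10.22 in WT hearts, where only TG replicate 1 reached the lowest WT heart. Myocd, myocardin, a partner of serum response factor, differed by -0.48 (adjusted p = 0.0132, limma) and Gata6 by -0.33 (adjusted p = 0.0185, limma; 0.0522 after median scaling). Purb, a single-stranded DNA binding protein that holds down Myh6, differed by 0.28 (adjusted p = 0.0389, limma), but was called neither when no dim probe was filtered out or arrays were scaled to their medians nor without any 1 of TG replicates 2, 4 and 6 or WT replicates 1, 2, 3 and 6 (adjusted p up to 0.0842, limma). With the replicate number as a block, the Purb call was lost as well (adjusted p = 0.0782, limma).

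Genes tied to exercise hypertrophy and to remodeling were set beside them, with 11.6% of all tested probes higher and 10.3% lower in TG hearts. Of the exercise factors, a list partly drawn from genes that the study had followed, 2 of 8 tested rose and 1 of 8 fell, with a median of 0.07. They were Ccnd1, cyclin D1, at 0.61 (SE 0.09, adjusted p = 0.000257, limma), Igf1r, the receptor of insulin-like growth factor 1, at 0.30 (adjusted p = 0.0199, limma), and Nkx2-5, which stands on both lists. Of the stress and remodeling genes, 3 of 9 rose and 0 of 9 fell, with a median of 0.56. Tgfb2, a transforming growth factor β ligand, differed by 1.12 (SE 0.16, adjusted p = 0.000211, limma) and Timp1, an inhibitor of matrix metalloproteinases, by 0.88 (SE 0.22, adjusted p = 0.0102, limma). Tnfrsf12a, the receptor of TWEAK, differed by 0.56 (adjusted p = 0.0469, limma), and the call was lost without any 1 of TG replicates 1, 2, 5 and 6 or WT replicates 3, 4, 5 and 6 (adjusted p up to 0.0923, limma), without the filter (0.108) and with trend and robust variances (0.0574). Of the calcium handling genes, 2 of 7 fell and 0 of 7 rose, with a median of -0.19: Casq2, calsequestrin 2, at -0.63 (SE 0.14, adjusted p = 0.00602, limma), and Ryr2, the ryanodine receptor, at -0.32 (SE 0.08, adjusted p = 0.0117, limma). The Ryr2 value is that of the brightest of its 3 tested probes, and the others are not given here.

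**Figure D4:**
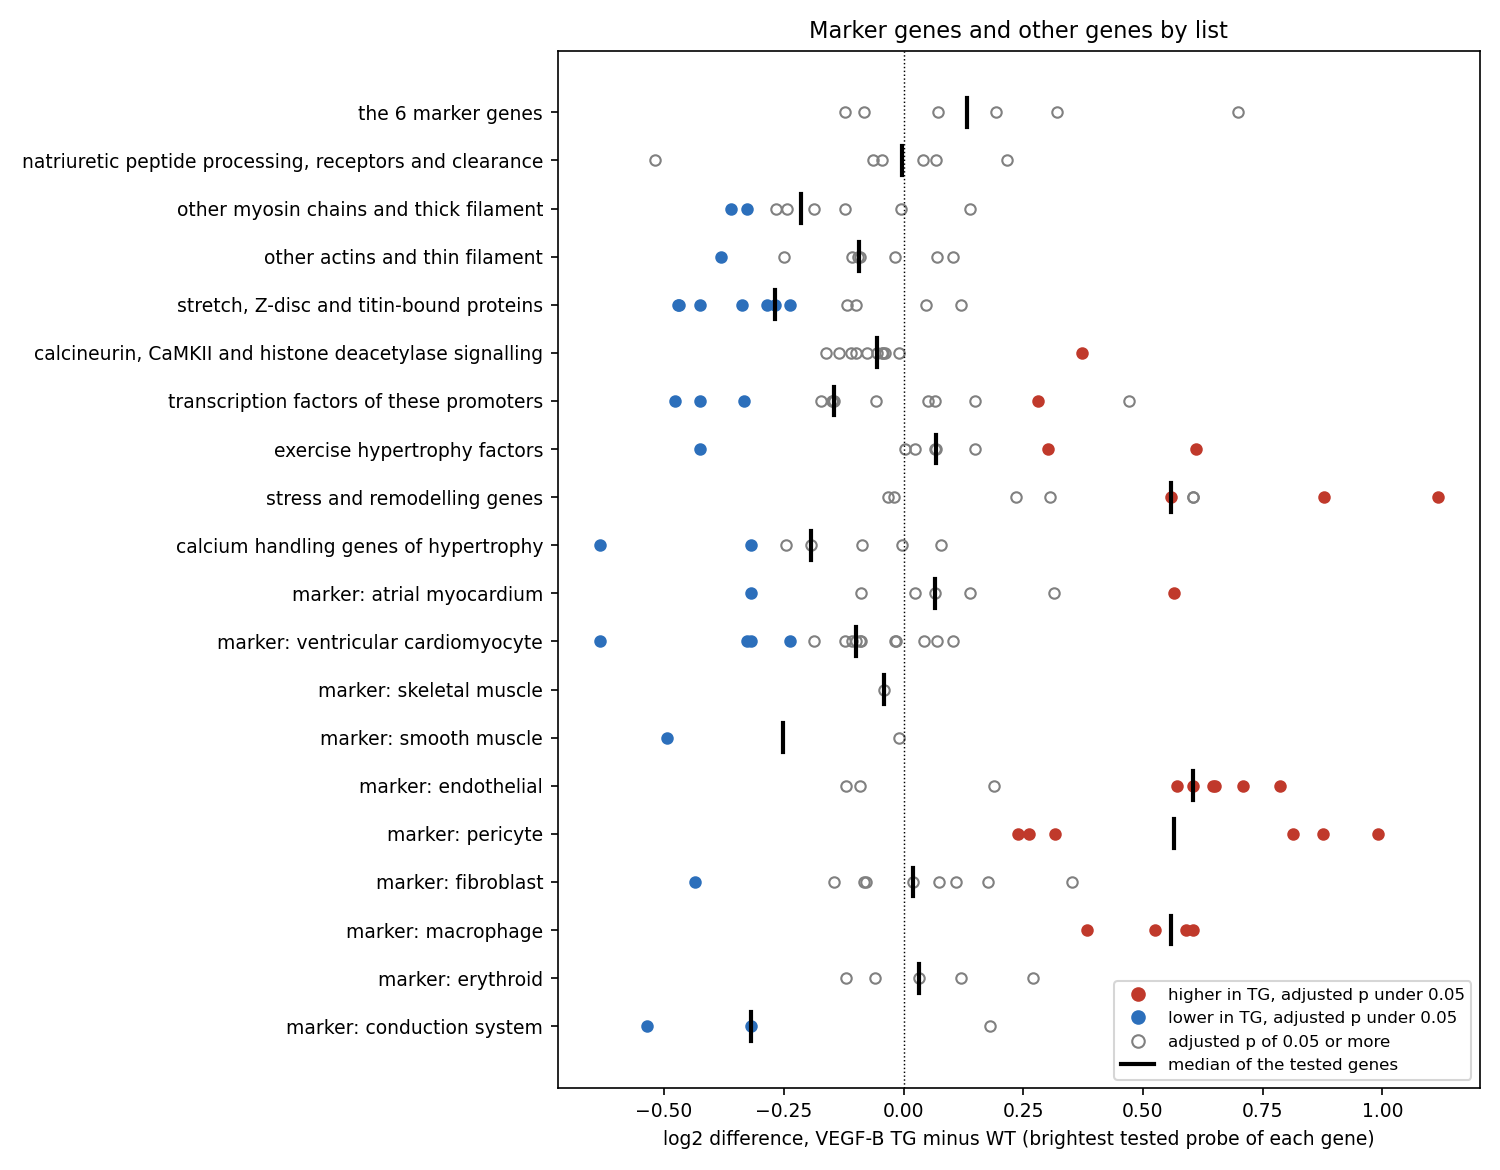
Log2 difference, VEGF-B TG minus WT, of the tested genes in each list (1 point per gene, its brightest probe), filled red where higher and filled blue where lower in TG hearts at an adjusted p under 0.05, open otherwise, with the median as a bar. The 6 marker genes are all open, 7 of 11 stretch and Z-disc genes are filled blue, and 6 of 9 endothelial marker genes are filled red.

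Most pairs of the 6 genes, other than those with Myh6, varied in the same direction between hearts of one genotype. After the mean of each genotype was subtracted, 11 of the 15 pairs had a correlation above 0 over the 12 arrays, with a median r of 0.38 and a range of -0.18 to 0.80. Myh6 ran between -0.18 and 0.16 with the other 5, and Myh7 and Acta1 were at -0.14. These are descriptions: the arrays share their normalization, and no test was made. The closest pair was Nppa and Ankrd1 (r = 0.80, Spearman's rho 0.85), with r of 0.91 within the TG and 0.81 within the WT hearts, and 0.91 when WT replicates 1 and 5, the farthest from the Nppa median, were left out. Nppa and Acta1 had an r of 0.66 (rho 0.64; 0.59 without those 2 hearts), and Nppa and its neighbour Nppb 0.59 (rho 0.43; 0.45 without them). Nppa and Ankrd1 therefore moved together from heart to heart within each genotype, while their mean differences between genotypes, neither past the threshold, had opposite signs.

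Over the same 12 arrays, the named genes most like each of the 6 were looked up. Akip1, which encodes an A-kinase interacting protein, came first for both Nppa (r = 0.91) and Ankrd1 (r = 0.92), and it was itself higher in TG hearts by 0.77 (adjusted p = 0.0152, limma). Next for Nppa were Tbkbp1 (r = 0.90) and Tbce (r = 0.87), and for Ankrd1 Ephx4 and Tex10 (r = 0.90 each). Those for Nppb were Ramp1 (r = 0.86), a receptor subunit of the calcitonin family, Dnal1 (r = 0.84) and the chemokine Ccl19 (r = 0.84). For Myh6 they were Ppp2cb (r = 0.88), Celf2 (r = 0.86) and Cep44 (r = 0.85), for Myh7 Zfyve1 (r = 0.90), Smc6 (r = 0.87) and Adrb3 (r = 0.80), and for Acta1 Cdk16 (r = 0.81), Krit1 (r = 0.79) and Arfgef1 (r = 0.79). Ccl19, at 1.54 (adjusted p = 0.00012, limma), Krit1, at 0.28 (0.00605), and Cdk16, at -0.29 (0.0276), also passed the test between genotypes. The Cdk16 call was lost after median scaling (adjusted p = 0.105, limma). It was also lost without any 1 of TG replicates 2, 3 and 5 or WT replicates 1 and 2. With so many genes searched, the 100th gene in rank still had an r of 0.63 to 0.69.

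Because atrial tissue is rich in Nppa, atrial genes were read in the same hearts. Of the atrial markers, 1 of 7 tested rose (Nr2f1, at 0.56) and 1 of 7 fell (Gja5, at -0.32), beside 11.6% and 10.3% of all tested probes. The normalized signal, taken off the log2 scale and summed over all probes of the list, tested or not, was 1447 to 2202 in TG and 1454 to 1927 in WT hearts. Pam gave the largest part of each sum, with a log2 signal of 9.50 to 10.18 in TG and 9.73 to 10.18 in WT hearts, and differed by -0.09. The Gja5 call (adjusted p = 0.0390, limma) was lost without background correction, after median scaling or cyclic loess, in the authors' log2 table and without the filter on dim probes (adjusted p up to 0.172), and without any 1 of 9 arrays, the exceptions being TG replicates 4 and 6 and WT replicate 6. It was also lost with the replicate number as a block (adjusted p = 0.0834, limma). Myl7, the atrial light chain, had a log2 signal of 7.05, 6.66, 6.48, 7.70, 7.65 and 8.39 in TG replicates 1 to 6, against 8.12, 7.36, 6.49, 7.35, 6.31 and 7.47 in WT replicates 1 to 6, without a difference that passed the test (0.14, adjusted p = 0.811, limma). Within the genotypes it followed Nppa with an r of 0.79, and the heart with the highest Nppa in each genotype, TG replicate 6 and WT replicate 1, also had the highest Myl7. For the other markers the r with Nppa was 0.63 (Nr2f2), 0.44 (Pam), 0.30 (Gja5), 0.06 (Nr2f1), 0.00 (Kcnj3) and -0.18 (Bmp10). The part of atrial tissue in the spread of Nppa was not tested.

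**Figure D5:**
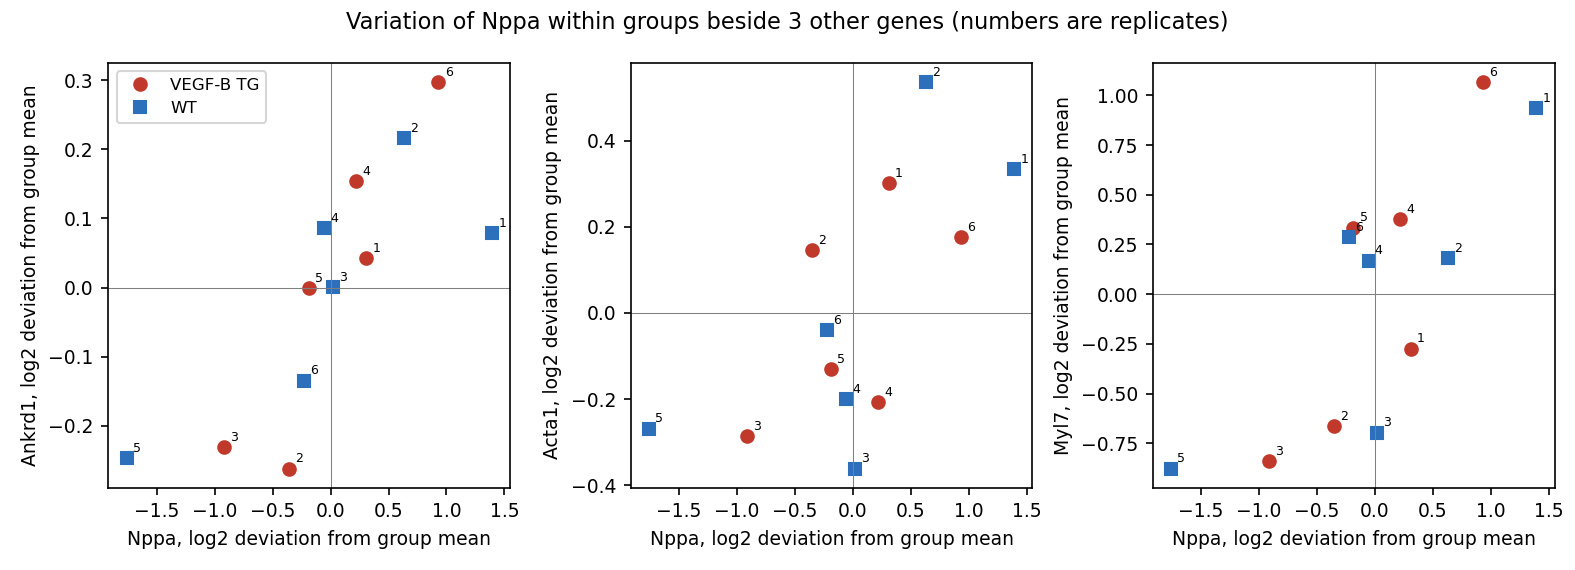
Log2 deviation of each heart from the mean of its genotype, Nppa on the horizontal axis against Ankrd1, Acta1 and Myl7 on the vertical axis, with VEGF-B TG as circles and WT as squares. Hearts with more Nppa tended to have more of the other 3 (r = 0.80, 0.66 and 0.79), and WT replicate 5 was lowest for Nppa.

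In whole ventricle, fewer cells of a type and less RNA per cell cannot be told apart, so the cell type markers stand beside these results. As a reference, 11.6% of all tested probes were higher and 10.3% lower in TG hearts. Of the ventricular cardiomyocyte markers, 4 of 15 tested fell (Casq2, Ryr2, Myl2 and Myoz2) and 0 of 15 rose, with 15 of 15 detected on all 12 arrays. Their normalized signal, summed in the same way over all probes of the list, was 248579 to 266327 in TG and 262856 to 278182 in WT hearts. The 4 cardiomyocyte markers that fell also stand on the calcium handling, myosin chain and Z-disc lists above, so they are the same values. The median over the 15 was -0.10, with 3 above 0 and 12 below. Endothelial markers rose for 6 of 9 tested genes (Emcn by 0.65, Icam2 by 0.71), with sums of 12389 to 13555 in TG and 7792 to 9162 in WT hearts, pericyte markers for 6 of 6 (Vtn by 0.81) and macrophage markers for 4 of 4 (Fcer1g by 0.60). Of these, Rgs5, a pericyte marker, was detected on 6 of 6 TG but 1 of 6 WT arrays, so it met the filter only through the TG hearts. Rgs5 lost its call without the filter (adjusted p = 0.0615, limma), after median scaling (0.0517) and without any 1 of TG replicates 2 and 6 or WT replicates 1, 2, 4 and 6, and the pericyte marker Abcc9 after median scaling (0.0880). Mrc1, a macrophage marker, lost it without the filter (0.0657) and without any 1 of TG replicates 2, 5 and 6 or WT replicates 1, 3, 4 and 5. Fibroblast markers fell for 1 of 9 (Pdgfra, at -0.44) and rose for 0 of 9. Of the 9, 5 lay above 0 and 4 below, with a median of 0.02. Their sums were 42974.5 to 51236.1 in TG and 39292.8 to 45894 in WT hearts. Smooth muscle markers fell for 1 of 2 (Tagln, at -0.49), and the other, Smtn, was at -0.01. Conduction system markers fell for 2 of 3 (Irx3, at -0.53, and Gja5), while Cacna1g was at 0.18 (adjusted p = 0.118, limma). Erythroid markers fell for 0 of 5 and rose for 0 of 5, and the brightest, Hbb, differed by 0.03. Skeletal muscle makes Acta1 in quantity, and of its markers 1 of 8 was bright enough to be tested (Tnni2, at -0.04), and Myh2, Myh4, Actn3, Pvalb, Myog and Myod1 were detected on 0 of 12 arrays and Tnnt3 on 2 of 6 TG and 0 of 6 WT arrays. The part of these shifts in the marker gene values was not tested.

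The number of probes detected was 8820 to 9655 on TG and 8452 to 9251 on WT arrays. The lowest counts, 8452, 8535 and 8618, came from WT arrays, and the highest, 9339, 9472 and 9655, from TG arrays. The part of this shift in the calls of dim probes was not tested. Vegfb was read by 1 probe made to the rat gene, with an intensity of 182 to 514 in TG and 219 to 1242 in WT hearts, a difference of -1.04 that did not pass the test (SE 0.58, adjusted p = 0.227, limma). Whether that probe can read the transgene is not given in the sources used here, so it does not check the labels. All 6 marker genes were detected on all 12 arrays.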

How the data were processed

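Illumina RatRef-12 arrays were hybridized with RNA from the left ventricles of 12 rats, 6 per genotype. The deposited bead intensities had been summarized by the authors in GenomeStudio without normalization, beside a deposited detection p-value per probe. The authors also deposited log2 values, quantile normalized in Chipster (versions not given in the sources used here), which differed from log2 quantile values computed here by at most 0.00883. The lowest intensity was 100.5.

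Here the intensities were background corrected (neqc of limma 3.58.1 in R 4.3.3, offset 16), quantile normalized and set to log2. Differences, standard errors and adjusted p-values came from lmFit and eBayes over 9054 probes, those detected (p under 0.05) on 6 or more of the 12 arrays. The exact permutation tests were 2-sided over 924 assignments. The offset makes the change of dim genes look smaller, and precision is limited by the 12 arrays, 1 per rat.

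The platform annotation gave 13787 probes 1 symbol, 0 several and 8730 none. The genes and the 19 other lists (194 genes, 157 on the array) were chosen with earlier results of these data known. Genes named were all that passed in a list where 6 or fewer had passed, otherwise the 3 rising and 3 falling with the smallest p, or the brightest where none had passed, and the 3 most correlated named genes for each marker gene. A list gene with several probes was counted by its brightest. Alternatives were other background corrections, normalizations, filters and variance settings, array weights, a replicate block, a threshold of 0.01 and each array left out. The fit was tested on simulated data. Figures were drawn with matplotlib.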

Additional observations from a re-analysis of the deposited data

Results flagged for a closer look

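Of the 134 groups of 6 values behind the genes named, 7 held an array whose gap to its nearest neighbour was over Dixon's 95% limit, which chance alone gives in about 5% of groups. None of the 14 groups of the 6 marker genes and their myosin ratio did so. In TG hearts these were Purb at 9.30 (log2 signal) and Myoz2 at 14.21 in replicate 6, Icam2 at 11.33 in replicate 6, Ccnd1 at 11.68 in replicate 2, and Nr2f1 at 7.63 and Vtn at 11.22 in replicate 3. In WT hearts it was Myh7b at 8.77 in replicate 5.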

How the results depend on the processing

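Over the 6 marker genes, 65 of 66 values under the settings that used all arrays, and 70 of 72 with 1 array left out, kept their direction and their side of the threshold. The exceptions were Acta1, which was called at 0.32 with the replicate number as a block (adjusted p = 0.0250, limma; 1 of 6 genes called) and at 0.43 without WT replicate 2 (adjusted p = 0.0408), and Nppb, which turned to 0.013 without TG replicate 3 (lowest -0.19). The labels tie the replicate numbers to no shared litter, batch or day. After the means were removed, 4 of 6 same-numbered pairs correlated at 0.185 to 0.227 and the other pairs at -0.145 and -0.0744, and 3 of 6 TG arrays were closest to their own number. Whether the numbers pair the arrays was not tested, and for want of a label the main fit used no block. With the block, 1024 probes were higher and 904 lower in TG hearts, against 1050 and 931 without it, and at an adjusted p under 0.01 the counts were 561 and 475. With 1 array left out, 847 to 1014 probes were higher and 752 to 968 lower, 0 to 1 of the 6 genes was called, and the Acta1 difference ran between 0.25 and 0.43. Of the other named genes, 39 of 645 values lost the call with all arrays and 53 of 720 with 1 left out, while 1 and 2 values gained it (Ppp2cb without background correction and without WT replicate 6, Celf2 without WT replicate 1). Among the 39 are calls lost to the stricter threshold of 0.01, which leaves the estimates unchanged. That threshold took more calls than any other setting, such as those of Myl2, Trim54 and Timp1. The block took the call from Purb (adjusted p = 0.0782) and Gja5 (0.0834). With 1 array left out, 5 genes that had not been called ran across 0: Ephx4 from -0.097 to 0.015 (TG replicate 2 out), Cep44 from -0.020 (WT replicate 1 out) to 0.11, Tnni2 from -0.090 to 0.033 (WT replicate 4 out), Tbkbp1 from -0.0051 to 0.15 and Smc6 from -0.0020 to 0.036 (WT replicate 5 out for both). The causes were not tested. Each marker gene has 1 probe, so a mean over a gene's probes gives no other value.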
